A study of Mus musculus with 9 samples.

Results

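The Id genes Id1, Id2, Id3 and Id4 encode small helix-loop-helix proteins, and all 4 were among the 14477 genes measured in cells sorted from the 2 neurogenic regions of the adult mouse brain. The members were taken by gene symbol, and their coordinates are from GENCODE M21 on GRCm38 (mm10). Id proteins have a helix-loop-helix dimerisation domain but no basic DNA-binding region, so a dimer that contains one does not bind DNA. They pair mainly with the E proteins (Tcf3, Tcf4 and Tcf12) and thereby keep tissue-specific basic helix-loop-helix (bHLH) factors from acting. Bone morphogenetic proteins (BMPs) induce Id1, Id2 and Id3 through Smad1, Smad5 and Smad9 in many cell types. In adult neural stem cells BMP signalling is known for holding back division, and Id proteins for holding back neuronal differentiation. Id1 and Id3 are also well known from endothelial cells.

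The libraries came from mice of the reporter strain B6.Cg-Tg(Nes-EGFP)1Yamm, in which regulatory sequence of Nestin, an intermediate filament gene of neural precursors, drives green fluorescent protein. Fluorescent cells were sorted from the dissected dentate gyrus (DG, 5 libraries) or subventricular zone (SVZ, 4 libraries) of untreated adult mice kept in standard housing. Both groups carry the transgene, and Nestin is also known from some cells of blood vessels. The labels do not say whether a library came from 1 animal or from a pool, so p-values rest on library-to-library spread alone, and some of that spread may be technical. Expression is given as log2 CPM, the log2 of a gene's reads after 1 prior read was added and libraries were brought to the same total. Differences are DG minus SVZ on that log2 scale, with standard errors (SE) and adjusted p-values from limma over all genes.

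Library totals were 33627909 to 41164044 reads in DG and 31126803 to 32528255 reads in SVZ. Markers of other cell types were detected in both regions, and which region had more depended on the type. Each of the 12 endothelial, 10 pericyte and smooth muscle, and 7 fibroblast markers was higher in DG (median log2 differences of 6.23, 7.14 and 4.92, against -0.07 over all genes). Their summed levels were 1202 to 2315, 5406 to 11210 and 672.2 to 1438 CPM in the DG libraries, and 11.95 to 69.4, 71.6 to 168.4 and 25.1 to 87.1 CPM in the SVZ libraries. Most of the fibroblast sum in every library came from Pdgfra (means of 9.63 log2 CPM in DG and 4.89 in SVZ), so that sum mainly gives the level of a single gene. None of the endothelial, pericyte and smooth muscle, or fibroblast markers was at 0 reads in any library. Of 12 astroglial and quiescent stem cell markers, DG had more of 9 and SVZ more of 2 (median 2.16), with summed levels of 20730 to 31190 CPM in DG and 2676 to 4611 CPM in SVZ. All 8 neuroblast markers (median -2.07), all 8 markers of dividing cells (median -1.59) and all 6 ependymal markers (median -3.21) were higher in SVZ. Of the oligodendrocyte lineage markers 7 of 8 passed on the DG side (median 2.05). Neuronal markers split, with 2 of 8 passing on the DG side and 3 on the SVZ side (median 0.21), and among microglial markers 0 and 2 of 8 did so (median -0.16). The microglial calls, Tmem119 and P2ry12, were both lost without SVZ 3 or SVZ 4, as was the call of the neuronal marker Slc17a7 (2.72) without SVZ 1 or SVZ 4. By adjusted p the leading markers were Emcn (6.37) and Esam (6.58) for endothelium, Kcnj8 (7.34) and Higd1b (7.18) for pericytes, Slc6a13 (6.51) and Lum (6.31) for fibroblasts, and Sox10 (3.34) and Cspg4 (5.67) for the oligodendrocyte lineage. On the SVZ side they were Dpysl3 (-1.84) and Sox11 (-1.47) for neuroblasts, Rrm2 (-2.21) and Top2a (-1.84) for dividing cells, Rsph4a (-3.00) and Ccdc153 (-3.90) for ependyma, and Gad2 (-5.54) and Gad1 (-3.27) for neurons. Cspg4 differed more than every other gene of the oligodendrocyte list, such as Olig1 (3.29) and Olig2 (2.43), and which cells gave its value was not tested. What these differences contribute to the values of the Id genes was not tested. In sorted bulk cells, more cells that express a gene and more RNA of it per cell cannot be told apart.

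**Figure D1:**
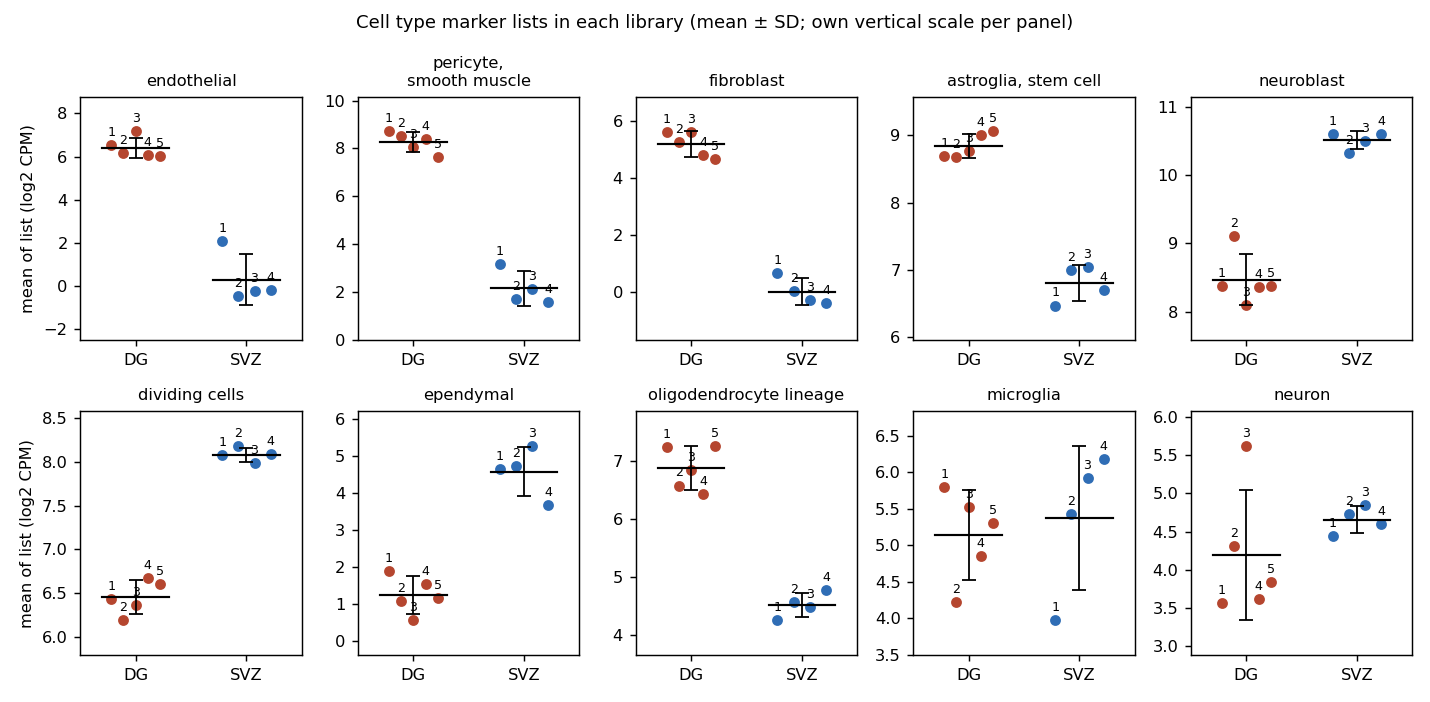
Mean log2 CPM of each cell type marker list in every library, DG left of SVZ, with the mean and SD of the group and the replicate number over each point; each panel has its own vertical scale. Endothelial, pericyte, fibroblast, astroglial and oligodendrocyte lists lie higher in DG, neuroblast, dividing cell and ependymal lists lie higher in SVZ, and SVZ 1 has the highest endothelial mean of its group (2.08 against -0.48 to -0.21).

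Id1, Id2 and Id3 were 5.5-fold to 7.12-fold higher in DG, and Id4 was 1.79-fold lower in DG. All 4 genes passed the test, where 66.6% of all genes did (32.9% higher in DG and 33.7% higher in SVZ). In each of the 4 the groups did not overlap, as in 58% of all genes (every DG library above every SVZ library in 29.7%, and below in 28.3%). The sizes of the differences lay inside the range of the transcriptome: 9.28% of genes had a difference at or above that of Id1, 8.88% at or above that of Id2 and 7.38% at or above that of Id3, while 16.9% had one at or below that of Id4. All 4 calls and directions held under each of the 17 alternative fits.

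Id2 (ENSMUSG00000020644, chromosome 12, 25093799 to 25097140, minus strand) is known in neural precursors for opposing neuronal differentiation, and in proliferating cells for binding the retinoblastoma protein. It stood at 9.01, 8.88, 8.59, 8.89 and 9.21 log2 CPM in DG 1 to DG 5, and at 6.09, 6.60, 6.29 and 6.58 in SVZ 1 to SVZ 4. The lowest DG library, DG 3, lay well above the highest SVZ library, SVZ 2. The means were 8.92 ± 0.23 in DG and 6.39 ± 0.25 in SVZ (SD, n = 5 and n = 4), a 5.76-fold difference (log2 difference 2.53, SE 0.14, limma adjusted p = 9.81e-08).

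Id3 (ENSMUSG00000007872, chromosome 4, 136143497 to 136145755, plus strand), which acts together with Id1 in blood vessel growth and in the maintenance of neural progenitors, showed the largest difference of the 4 genes. Its values were 8.04, 7.60, 8.07, 7.89 and 7.99 log2 CPM in DG 1 to DG 5, against 4.60, 5.57, 5.25 and 4.94 in SVZ 1 to SVZ 4. DG 2 was the lowest library of the DG and SVZ 1 the lowest of the SVZ, and the SVZ libraries spread over 0.98 log2 units where the DG libraries spread over 0.47. The means were 7.92 ± 0.19 in DG and 5.09 ± 0.42 in SVZ (SD, n = 5 and n = 4), a 7.12-fold difference (2.83, SE 0.18, limma adjusted p = 2.34e-07).

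Id1 (ENSMUSG00000042745, chromosome 2, 152736251 to 152737410, plus strand), known from work in the adult mouse SVZ as a protein of astrocyte-like stem cells, stood at 5.24, 4.89, 5.23, 5.15 and 5.33 log2 CPM in DG 1 to DG 5. In SVZ 1 to SVZ 4 it stood at 2.80, 3.11, 2.71 and 2.22. The DG libraries lay close together, and SVZ 4 was the lowest library of all. Id1 averaged 5.17 ± 0.17 in DG and 2.71 ± 0.37 in SVZ (SD, n = 5 and n = 4), a 5.5-fold difference (2.46, SE 0.18, limma adjusted p = 5.82e-07).

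Id4 (ENSMUSG00000021379, chromosome 13, 48261228 to 48266026, plus strand), known in adult hippocampal stem cells for keeping them quiescent, went the other way. It had 3.63, 3.87, 3.93, 4.23 and 4.28 log2 CPM in DG 1 to DG 5, and 4.83, 4.60, 4.59 and 5.28 in SVZ 1 to SVZ 4. The gap between the groups was narrow, from 4.28 in DG 5 to 4.59 in SVZ 3, and SVZ 4 stood above the other SVZ libraries. Id4 averaged 3.99 ± 0.27 in DG and 4.82 ± 0.33 in SVZ (SD, n = 5 and n = 4), a log2 difference of -0.84 (SE 0.19, limma adjusted p = 0.00205). Without SVZ 4 the difference was -0.68 (limma adjusted p = 0.00533). Exons of the antisense gene A330033J07Rik and of Gm49291 on the opposite strand overlap those of Id4 by 82 and 171 bases, and the libraries do not mark the strand, so reads in those bases cannot be assigned to a strand. No gene of the annotation overlaps the exons of Id1, Id2 or Id3.

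**Figure D2:**
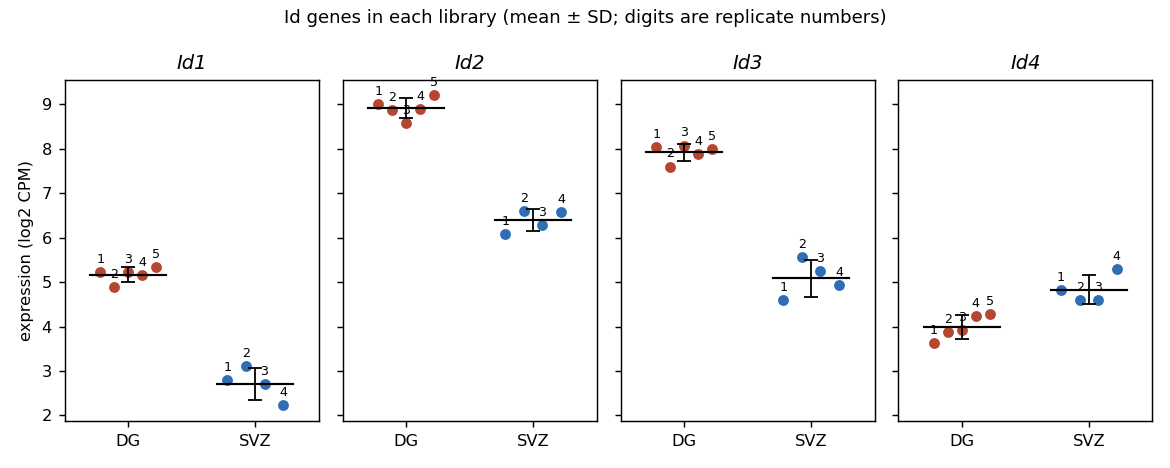
Expression of Id1, Id2, Id3 and Id4 in log2 CPM in each of the 9 libraries, DG left of SVZ, with the group mean and SD; the digit over a point is its replicate number. For Id1, Id2 and Id3 all 5 DG libraries lie above all 4 SVZ libraries, and for Id4 all 5 lie below.

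Upstream sequence is shown to set Id2 and Id3, higher in DG, beside Id4, lower in DG. It was searched for short motifs in the 250 bases before the RefSeq start (GRCm38.p6). The motifs were GGCGCC, the core of a GC-rich element bound by BMP Smads, CAGAC, the Smad box core, and CANNTG, the E box bound by bHLH dimers, each on both strands. Id2, Id3 and Id4 had an entry. Of the 250 bases, 250 for Id3, 161 for Id2 and 0 for Id4 lie in an exon of the gene in GENCODE M21, so only the Id4 window is free of annotated exon. The 30 bases around each Smad motif are shown 5′ to 3′ on the strand of the gene, with the motif, or its reverse complement, in capitals, at chr12:25096306-25096335 for Id2, chr4:136143643-136143672 and chr4:136143742-136143771 for Id3 and chr13:48260956-48260985 for Id4.
Id2: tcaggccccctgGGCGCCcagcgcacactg
Id3 first site: tgtcctcggcgtCAGACcagcctaaggaag
Id3 second site: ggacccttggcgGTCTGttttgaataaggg
Id4: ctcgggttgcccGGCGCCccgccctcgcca

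GGCGCC began 231 bases before the start of Id2, which was higher in DG, and 148 bases before the start of Id4, which was lower in DG, and it was not found in the window of Id3. It was present in 16.9% of 10834 promoters of measured genes. CAGAC was found in Id3 alone of the 3, at 167 bases and, on the opposite strand, 68 bases before the start, and was present in 40.5% of promoters. Both Id3 matches lie in an exon annotated by GENCODE M21. An E box was found in Id2 alone, 196 bases before the start, and was present in 56.9%. These matches are descriptions of short windows, and binding was not measured.

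The spread between libraries was larger than read counting alone gives for every member. Id1 in SVZ rested on the fewest reads, 151 to 267 per library, for which counting gives an SD of 0.101 log2 units against the observed 0.37. Id1 had 1062 to 1660 reads in the DG libraries. Id2 had 14013 to 24316 reads per DG library and 2167 to 3108 per SVZ library, with a counting SD of 0.0109 and 0.0281 against observed SDs of 0.23 and 0.25. These counting errors cover sampling of reads only, since PCR copies were not tagged.

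The differences were of similar size without the libraries whose markers stand apart. SVZ 1, with the highest endothelial mean of its group (2.08 against -0.48 to -0.21 log2 CPM), had the lowest Id2 and Id3 values of the SVZ. It also had the lowest astroglial and stem cell marker mean of the SVZ (6.47 against 6.71 to 7.04 log2 CPM), and the part of either cell type in its Id values was not tested. Without SVZ 1 the log2 differences were 2.49 for Id1, 2.43 for Id2, 2.67 for Id3 and -0.83 for Id4. DG 2, with the highest neuroblast mean of the DG libraries (9.10 against 8.10 to 8.38), had the lowest DG values of Id1 and Id3, and without it the differences were 2.53, 2.54, 2.91 and -0.81. All 4 calls held in both cases.

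Levels of different genes can be set side by side only per length, here as CPM per kilobase of merged exons of the gene (1.16 kb for Id1, 2.44 kb for Id2, 1.79 kb for Id3 and 3.85 kb for Id4). In all 5 DG libraries the order was Id2, Id3, Id1, Id4. Id2 averaged 200.1 ± 30.7 CPM per kb in DG, Id3 136 ± 16.9, Id1 31.2 ± 3.49 and Id4 4.18 ± 0.77 (SD, n = 5). Id2 and Id3 were close in DG 3, at 157.9 and 150.5 CPM per kb. In SVZ the order was again led by Id2 at 34.8 ± 5.77 and Id3 at 19.6 ± 5.61 CPM per kb, but Id4 at 7.51 ± 1.82 and Id1 at 5.77 ± 1.39 (SD, n = 4) did not differ beyond their spread. Id4 exceeded Id1 in 3 of the 4 SVZ libraries, and SVZ 2 was the exception, with 6.28 CPM per kb of Id4 and 7.42 of Id1.

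Id4 was a minor part of Id expression in DG and a larger one in SVZ. Per length, Id4 supplied 0.816% to 1.35% of the summed expression of the 4 genes in the DG libraries, against 7.84% to 14.4% in the SVZ libraries. Id2 supplied 45.8% to 58.4% in DG and 49.3% to 55.6% in SVZ, and Id1 supplied 7.71% to 9.4% in DG and 5.71% to 10.9% in SVZ. Id3 supplied 32.8% to 43.7% in DG and 24.3% to 33.2% in SVZ. On this scale the ranges of Id1, Id2 and Id3 overlapped between the regions, that of Id3 only narrowly, and that of Id4 did not. As a share of the reads of the 4 genes, not corrected for length, Id3 did not overlap either, with 27.4% to 38.1% in DG and 18.0% to 26.8% in SVZ. The 4 genes together held 0.0707% to 0.0905% of all reads in the DG libraries and 0.0127% to 0.0177% in the SVZ libraries.

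Whether the 4 genes moved differently from one another was tested on the log2 difference of each pair within a library, which does not depend on how libraries are scaled. The difference between Id3 and Id4 was 3.93 ± 0.33 in DG and 0.26 ± 0.65 in SVZ (SD, n = 5 and n = 4), a change of 3.67 log2 units. Corresponding changes were 3.36 for Id2 against Id4 and 3.30 for Id1 against Id4. In each of these 3 pairs all DG libraries lay above all SVZ libraries, and the exact two-sided permutation p was 0.0159, the smallest that 126 splits of 9 libraries allow (adjusted p = 0.0317 over the 6 pairs). Id1 against Id2 changed by -0.07 (exact p = 0.81, adjusted p = 0.81), and Id2 against Id3 by -0.31 (exact p = 0.159, adjusted p = 0.19), with overlapping groups. Id1 against Id3 changed by -0.37 (exact permutation p = 0.0317, adjusted p = 0.0476), with overlapping groups. That last change was -0.18 without SVZ 1 (exact permutation test, adjusted p = 0.107). With 8 libraries few splits remain, so the call lost there says nothing about stability. With all 9 libraries and a prior count of 0.25 reads, the change did not pass (-0.37, adjusted p = 0.0714).

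The dimer partners of Id proteins were lower in DG. Of the 3 E protein genes, 0 were higher in DG and all 3 were higher in SVZ, against 33.7% of all genes (median log2 difference -0.75, against -0.07 over all genes). Tcf3, which encodes E12 and E47, stood at 3.48, 3.38, 3.02, 2.92 and 3.58 log2 CPM in DG 1 to DG 5 and at 4.23, 4.28, 4.26 and 4.14 in SVZ 1 to SVZ 4 (-0.95, SE 0.16, limma adjusted p = 0.000366). Tcf12, which encodes HEB, averaged 6.55 ± 0.21 in DG and 7.30 ± 0.26 in SVZ (SD, n = 5 and n = 4), a log2 difference of -0.75 (limma, SE 0.14, adjusted p = 0.000749). Tcf4, which encodes E2-2, averaged 11.06 ± 0.11 in DG and 11.39 ± 0.13 in SVZ, a log2 difference of -0.33 (limma, SE 0.09, adjusted p = 0.00759). In none of the 3 did the groups overlap, as in the 28.3% of all genes with every DG library below every SVZ library.

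Per length, Tcf4 was by far the most abundant of the 3, at 78.1 ± 5.86 CPM per kb in DG and 98.3 ± 8.84 in SVZ. The summed expression of the 4 Id genes was 3.6 to 5.37 times that of the 3 E protein genes in the DG libraries and 0.447 to 0.768 times in the SVZ libraries. Every DG library thus had more Id than E protein expression on this scale, and every SVZ library had less. The ratio averaged 4.32 ± 0.70 in DG and 0.61 ± 0.13 in SVZ (SD, n = 5 and n = 4). This ratio is a description and was not tested, and its absolute value depends on merged exon lengths, which are 27.4 kb for Tcf4 and 15.5 kb for Tcf12. In reads not divided by length, the order in DG was reversed. Tcf4 alone had 69951 to 85674 reads per DG library, against 25487 to 37243 for the 4 Id genes together.

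**Figure D3:**
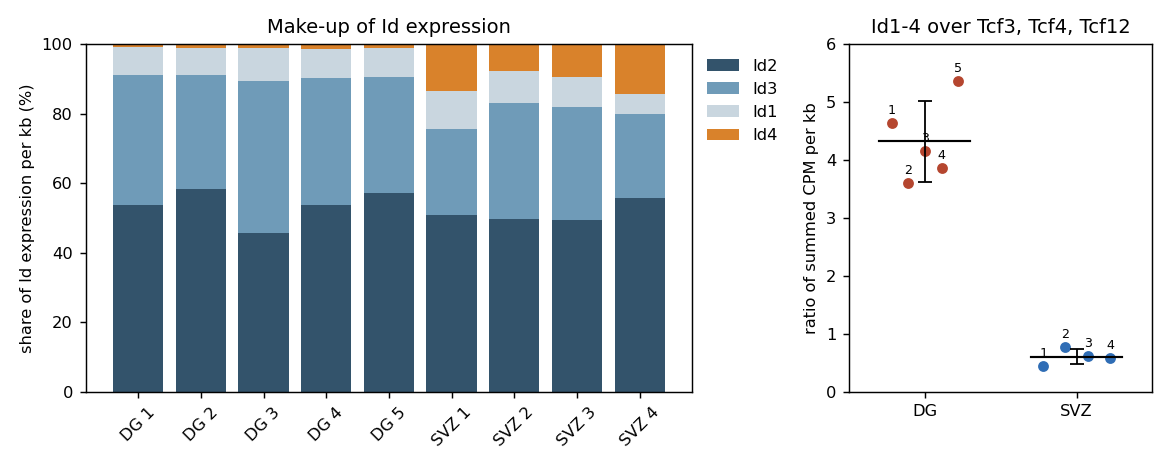
Left, the share of each Id gene in the summed CPM per kb of the 4 genes, as stacked bars for each library; right, the ratio of the summed CPM per kb of Id1 to Id4 to that of Tcf3, Tcf4 and Tcf12, with the mean and SD and replicate numbers. The share of Id4 is 0.816% to 1.35% in DG and 7.84% to 14.4% in SVZ, and the ratio lies above 3.6 in every DG library and at 0.768 or below in every SVZ library.

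Most measured proneural, neuronal, glial and mesodermal bHLH genes had more RNA in DG, and whether Id proteins limit their products here was not tested. Of 9 proneural and neuronal bHLH genes, 8 passed on the DG side and 0 on the SVZ side, and 1 missed the threshold (median log2 difference 3.40), where 32.9% of all genes passed on the DG side. Several had few SVZ reads, such as Bhlhe22 with 4 to 11 per SVZ library. With settings other than leaving out a library, which include a filter on low values, the DG count was 3 to 8. Neurod1, a factor of young granule neurons, averaged 9.25 ± 0.22 in DG and 3.45 ± 0.41 log2 CPM in SVZ (5.80, SE 0.18, limma adjusted p = 5.24e-09). Nhlh1 and Nhlh2, factors of young postmitotic neurons, were higher by 5.36 and 5.63, with 7 to 18 and 1 to 2 reads per SVZ library. Of the other bHLH list, 3 of 11 glial and mesodermal genes were measured and all 3 were higher in DG: Olig1 by 3.29, Olig2, a factor of the oligodendrocyte lineage, by 2.43 and Msc, a repressor known from muscle and B cells, by 5.04. Msc had 0 to 3 reads per SVZ library, and with the same other settings the DG count of this list was 1 to 3.

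The Hes and Hey genes encode bHLH repressors downstream of Notch, and 4 of the 6 passed on the DG side, 1 on the SVZ side and 1 on neither (median 2.01), beside 32.9% and 33.7% of all genes on the DG and SVZ sides. Hes1 stood at 3.15, 3.76, 3.58, 3.61 and 3.76 log2 CPM in DG 1 to DG 5 and at 0.09, 0.39, 0.54 and 1.00 in SVZ 1 to SVZ 4. Its difference of 3.06 (SE 0.22, limma adjusted p = 6.34e-07) stood beside 2.46 to 2.83 for Id1, Id2 and Id3. Hes5, a Notch target of neural stem cells, was higher by 1.24 (SE 0.32, adjusted p = 0.00544). Heyl, which is also known from pericytes and smooth muscle, was higher by 6.43, and Hey2, also known from vessels, by 2.78. Hes6, which opposes Hes1 and favours neuronal differentiation, was lower in DG by -1.30 (adjusted p = 0.0209), with overlapping groups. Its call was lost without SVZ 2 (adjusted p = 0.0675) and without SVZ 3 (adjusted p = 0.0561).

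Of 16 listed BMP family genes 8 were measured, which include Bmp1, a protease, and members that do not induce Id genes in the way of Bmp4 or Bmp7. DG had more of 5, SVZ more of 1, and 2 missed the threshold (median 2.67), where DG had more of 32.9% of all genes. With settings other than leaving out a library, which include a filter on low values, the DG count was 1 to 6 and the SVZ count 0 to 1. Bmp4, a ligand of both adult niches, had 5.27, 5.29, 5.13, 5.13 and 5.42 log2 CPM in DG 1 to DG 5 and 1.97, 0.77, 0.06 and 1.70 in SVZ 1 to SVZ 4, where the libraries spread widely (4.12, SE 0.33, limma adjusted p = 1.27e-06). Bmp5 was higher by 6.57, Gdf10 by 4.42, Bmp7 by 2.90 and Bmp3, which opposes other BMPs, by 2.44. Bmp5 had 2 to 5 reads per SVZ library and Gdf10 had 4 to 9. Bmp6 was lower in DG, at -1.27 ± 0.96 in DG and 0.65 ± 0.82 in SVZ (SD, n = 5 and n = 4), with overlapping groups (-1.92, SE 0.54, adjusted p = 0.00876). The markers of fibroblasts and pericytes differed in the same libraries by medians of 4.92 and 7.14, and their part in the ligand values was not tested.

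The receptors did not move one way. Among 11 measured receptor and co-receptor genes, 6 passed with more RNA in DG and 3 with more in SVZ, while 2 missed the threshold (median 0.56). Over all genes these shares were 32.9% and 33.7%, so the SVZ count was no larger than the background. Bmpr1b, a type I BMP receptor, averaged 6.33 ± 0.23 in DG and 4.15 ± 0.44 log2 CPM in SVZ (2.18, SE 0.20, limma adjusted p = 3.06e-06). Bmpr1a, the more widely expressed type I receptor, differed by 0.17 (95% interval -0.20 to 0.54, adjusted p = 0.392), and Bmpr2, the type II receptor, by -0.41 (95% interval -0.90 to 0.08, adjusted p = 0.125). Both moved with single libraries. Bmpr1a was 0.34 without SVZ 4 (adjusted p = 0.0397) and 0.02 without SVZ 3 (adjusted p = 0.897), and Bmpr2 was -0.57 without SVZ 2 (adjusted p = 0.044) and -0.21 without SVZ 4 (adjusted p = 0.373). Acvrl1 and Eng, receptor and co-receptor of BMP9 in endothelial cells, were higher in DG by 4.46 and 4.97, where the endothelial markers differed by a median of 6.23. Neo1 and Rgma, co-receptors of BMP signalling and axon guidance, were higher by 1.94 and 1.61, whereas Rgmb (-0.95) and the type II receptor gene Acvr2b (-1.78) were lower. Acvr1 (-0.69) and Acvr2a (0.56) also passed, but each lost its call when a single library was left out (adjusted p up to 0.074 and 0.131).

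Among the signal transducers, 1 of 5 measured Smad genes had more RNA in DG and 2 had more in SVZ, with 2 short of the threshold (median -0.26). As 66.6% of all genes passed, this count was near the background. Smad5 (-0.71, SE 0.09, limma adjusted p = 3.79e-05) and the shared partner Smad4 (-0.82, SE 0.17, adjusted p = 0.00133) were lower in DG. Smad1 differed by 0.09 (95% interval -0.31 to 0.49, adjusted p = 0.684). Smad9, a BMP Smad whose own gene responds to BMP, averaged 0.94 ± 0.40 log2 CPM in DG and -1.53 ± 0.44 in SVZ (SD, n = 5 and n = 4), with no overlap (2.47, SE 0.33, adjusted p = 5.2e-05).

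Other genes that BMP Smads are known to induce divided. Of 6 measured members, 3 passed on the DG side and 0 on the SVZ side, and 3 on neither (median 1.15, against -0.07 over all genes). Over all genes 66.6% passed, 32.9% on the DG side and 33.7% on the SVZ side. With settings other than leaving out a library, the DG count was 0 to 3. Reads per SVZ library were 6 to 19 for Atoh8 and 7 to 14 for Smad9. Atoh8, a bHLH gene induced in endothelial and liver cells, was higher by 1.94 (SE 0.36, limma adjusted p = 0.000663) and Msx1, a homeobox gene, by 1.14 (SE 0.24, adjusted p = 0.00151), beside Smad9. The feedback inhibitor genes Smad7 (-0.26, 95% interval -0.75 to 0.22) and Bambi (-0.30, 95% interval -0.97 to 0.36) did not pass. With 1 library left out, Smad7 ranged between -0.41 (without SVZ 3) and -0.08 (without SVZ 4), and Bambi between -0.49 (without DG 3) and -0.12 (without SVZ 4). Hey1 did not pass either (1.15, adjusted p = 0.0782), with 2.33 to 4.04 log2 CPM in DG and 1.19 to 3.14 in SVZ, but it passed without any one of DG 2, DG 5, SVZ 2 or SVZ 3 (adjusted p = 0.0382 without SVZ 2). Over all 9 libraries, the lower interval bounds for Id1, Id2 and Id3 were 2.07, 2.22 and 2.44. The upper bounds for Smad7, Bambi and Msx1 (1.68) lay below all of these. Those for Smad9 (3.18) and Atoh8 (2.74) lay above all of them, and that for Hey1 (2.33) lay above those of Id1 and Id2 only.

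**Figure D4:**
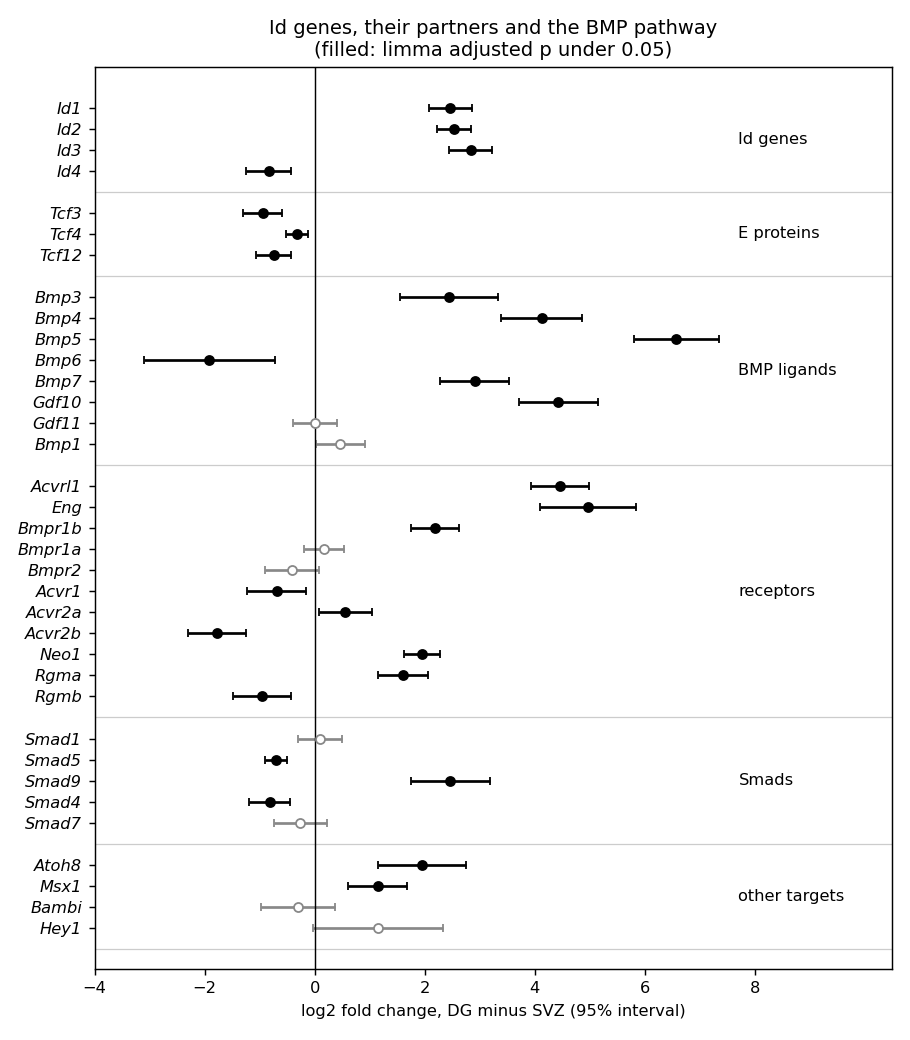
Log2 differences, DG minus SVZ, with 95% intervals from limma for the Id genes, the E protein genes and the measured BMP ligands, receptors, Smads and other targets; filled points passed the test at an adjusted p under 0.05 and open points did not. Id1, Id2 and Id3 lie at 2.46 to 2.83 and Id4 at -0.84, all 3 E protein genes lie below 0, and the Smad genes lie on both sides.

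For 15 measured BMP antagonists and modulators the counts were 6 on the DG side, 1 on the SVZ side and 8 on neither (median 0.26). A smaller share passed than the 66.6% over all genes (32.9% on the DG side and 33.7% on the SVZ side). Nbl1, a secreted BMP antagonist, was higher by 2.16, the protease gene Htra1 by 2.15, Crim1, a membrane protein that binds BMPs, by 2.00 and Bmper by 0.89. Smurf2, a ubiquitin ligase for Smads, was lower in DG (-0.65, limma adjusted p = 0.00255). Nog, which encodes the antagonist noggin, was not analysed here, nor was Smad6.

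Of 10 genes that control Id protein turnover or are known to respond to Id proteins, DG had more of 3 and SVZ more of 5, and 2 fell short of the threshold (median -0.31). Over all genes, 32.9% passed with more RNA in DG and 33.7% with more in SVZ. Usp1, a deubiquitinase that stabilises Id proteins, was lower in DG by -0.81 (SE 0.16, limma adjusted p = 0.00109). Fzr1, the activator of the ubiquitin ligase that degrades Id proteins, was also lower (-0.59, SE 0.10, adjusted p = 0.000421). Huwe1, a ubiquitin ligase, was lower by -1.19 (SE 0.17, adjusted p = 7.64e-05). The cell cycle inhibitor genes were split, with Cdkn1a (0.67) and Cdkn2c (0.86) higher in DG, Cdkn1b lower (-0.98) and Cdkn1c not passing (-0.25). Rap1gap, a gene that Id proteins are known to hold down in neural stem cells, was higher in DG by 2.45 (SE 0.31, adjusted p = 4.02e-05).

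The astroglial and stem cell genes alongside which Id genes are usually found gave differences on both sides of those of Id1, Id2 and Id3. Gfap was higher in DG by 4.17, the glutamate transporter gene Slc1a3 by 3.44 and the water channel gene Aqp4 by 2.22. Sox2, a transcription factor of neural stem cells, was lower in DG (-1.11, SE 0.12, limma adjusted p = 9.91e-06), as was Nes (-0.95, SE 0.22, adjusted p = 0.00238, with overlapping groups), and Id4 at -0.84 lay with these. Sox9 did not pass (0.31, adjusted p = 0.0818), though it did without DG 1 (0.39, adjusted p = 0.0264) or without DG 2 (0.38, adjusted p = 0.0399).

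Likeness to each Id gene was measured as the root mean square (RMS) difference, in log2 units over the 9 libraries, between 2 genes after each was centred on its own mean. The 9462 genes compared with each had a mean of at least 3 log2 CPM and a gene name that is not a clone or predicted gene, and since the libraries fall into 2 groups, the measure reflects the size of the regional difference first. Closest to Id1 were Ifit3, an interferon-induced gene, at an RMS difference of 0.143, Anxa7 at 0.152 and Rbfox3 at 0.176. Closest to Id2 were Degs1, a ceramide desaturase gene, at 0.126, Mfge8 at 0.14 and Cyp2j6 at 0.153. Closest to Id3 were Eogt at 0.149, Ntm at 0.164 and Ssh3 at 0.167. Closest to Id4 were Rcc2, a gene of mitosis and chromatin, at 0.11, Polr2m at 0.116 and Bag1 at 0.132. The RMS differences of Id1, Id2 and Id3 from one another were 0.301 (Id1 and Id3), 0.309 (Id2 and Id3) and 0.315 (Id1 and Id2), which placed them at ranks 77 to 154 of 9462 on each other's lists. Their RMS differences from Id4 were 1.69 to 1.87.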

How the data were processed

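Per the labels' protocols, Nestin-reporter cells were sorted by green fluorescence, cDNA was primed with poly-dT, extended by template switching, amplified and sheared, and libraries were built with DNA chemistry, which keeps no strand information. Per the submitters' processing notes, STAR, edgeR and mm10 were used; which program counted reads, and how low genes were filtered, are points not stated in those notes or labels. Values in the deposited table are log2 CPM with a prior count of 1 read, a form worked out from the numbers themselves: it returned every deposited value within 5.33e-14, and the reads behind them were whole for 100% of values (tolerance 0.001). One read was worth 0.0243 to 0.0321 CPM. For genes with few reads, a log2 fold change is too small because of the added read. No 2 libraries of a group were alike within counting noise (chi-square over degrees of freedom, 19.7 to 173).

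The design provided for counts or log2 values. Since the unit is log2, limma (version 3.58.1, in R 4.3.3) with its trend option was fitted to all 14477 genes, with tissue as the only term. The threshold was a Benjamini-Hochberg adjusted p under 0.05. The fit was first tried on simulated data with far fewer changed genes than were called here and the same variability for every gene. That trial does not show how the fit performs on these data. Pairs of Id genes were set against each other by an exact permutation test, two-sided (scipy 1.17.1). Symbols, coordinates and merged exon lengths came from GENCODE M21 (14433 identifiers matched) and motif windows from RefSeq. The members and lists were chosen with earlier results of these data known. By the rule, named genes were the Id and E protein genes, a fixed set of pathway genes, up to 3 passing members per direction of each pathway list and 2 of each marker list by adjusted p, and the 3 genes most like each Id gene. Acvr2a, Aqp4, Bambi, Bhlhe22, Bmp3, Bmper, Cdkn1c, Hey1, Pdgfra, Rgma, Sox9 and Usp1 lie outside the rule and were chosen after their values were seen. Also outside it are Camk2a, Csf1r, Gdf11, Mog, Ski, Skil, Sostdc1, Syt1 and Twsg1, named only for a lost call or a change of sign. One gene that the rule takes is not reported here. Alternatives covered scaling, prior count, a filter on low values, the variance model, the replicate number as a block and each library left out.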

Additional observations from a re-analysis of the deposited data

Results flagged for a closer look

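Values of the Id genes, the E protein genes, the Id sums and the marker lists were searched for libraries far from the rest of their group, in 38 groups of 4 or 5 libraries, of which chance flags about 1 in 20. No value of an Id or E protein gene stood apart. The endothelial marker mean of SVZ 1 did, at 2.08 log2 CPM where the other SVZ libraries had -0.48 to -0.21. The neuroblast marker mean of DG 2 did as well, at 9.10 where the other DG libraries had 8.10 to 8.38. The values of the Id genes without each of these libraries are given above, and the part of these cells in them was not tested.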

How the results depend on the processing

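Id1, Id2, Id3 and Id4 kept their direction and call under all 17 alternative fits. Leaving out 1 library at a time gave 2.30 to 2.59 for Id1, 2.43 to 2.61 for Id2, 2.67 to 2.99 for Id3 and -0.91 to -0.68 for Id4 (limma adjusted p up to 0.0063), and the other settings gave 2.42 to 2.51, 2.45 to 2.58, 2.81 to 2.89 and -0.91 to -0.78. The median of all genes was -0.02 with TMM and -0.04 with median-of-ratios scaling, against -0.07. All genes called numbered 9642, and 8970 to 9529 with a library left out. With a filter at a mean of 3 log2 CPM, fewer genes were tested and 6629 passed, 2938 of them higher in DG against 4769 unfiltered. Leaving out a library gave changes of 2.98 to 3.50 for Id1 against Id4, 3.25 to 3.51 for Id2 against Id4 and 3.46 to 3.90 for Id3 against Id4, with adjusted p from 0.0429 to 0.0714; with 8 libraries few splits remain, so calls lost there say nothing about stability. Id1 against Id3 gave -0.48 to -0.18, and -0.37 (adjusted p = 0.0714) with a prior count of 0.25 reads, where the cause was not tested. Id1 against Id2 gave -0.29 to 0.06, and was positive, at 0.0647, without SVZ 1. Id2 against Id3 gave -0.40 to -0.18. With the replicate number as a block the differences were 2.42, 2.45, 2.81 and -0.91, and 8786 of all genes were called. DG 5 shares its number with no SVZ library, so the block takes it out of the comparison. The differences are therefore the same as without DG 5, and the block fit is no separate check of their size. Among the genes named and the marker lists, the calls of Hes6, Acvr1, Acvr2a, Tmem119 and Mog were lost in the block fit. Same-numbered libraries correlated at -0.22 to -0.01 and no library correlated best with its own number. These correlations cannot tell whether same-numbered libraries shared an animal, a pool or a day, and the labels do not say. Among genes that did not pass, the sign turned for Skil (0.0367) and Sostdc1 (-0.0071) with the block and for Gdf11 (-0.0028) with voom weights. With a library left out, values crossed 0 for Camk2a (-0.339 to 0.541), Csf1r (-0.012 to 0.737), Gdf11 (-0.104 to 0.144), Ski (-0.0309 to 0.0764), Skil (-0.191 to 0.0367), Sostdc1 (-0.518 to 0.272), Syt1 (-0.545 to 0.417) and Twsg1 (-0.0751 to 0.152), and for Smad1 it was -0.0389 without SVZ 2. Depth limits Id1 most, at 151 reads in SVZ 4.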
